A study of Dicentrarchus labrax with 35 samples.

Results

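The testes of 20 juvenile European sea bass (Dicentrarchus labrax) were compared by the growth rate that the fish had shown before sex differentiation. Fast early growth was represented by 10 fish and slow early growth by 10 fish, chosen by the first letter of the sample title, out of 35 arrays in the series. Fish of group FF (fast-growing, then generously fed) and group FS (fast-growing, then restricted in food) made up the early fast testes. Fish of group SF (slow-growing, then generously fed) and group SS (slow-growing, then restricted) made up the early slow testes, with 5 fish in each of the 4 groups. Later food supply was a factor in the fit. FF and SF are called fed and FS and SS restricted. The remaining 15 arrays held sexually undifferentiated gonads of 7 fast-growing (F) and 8 slow-growing (S) fish at 133 days post fertilization (T1), and the testes were taken at 332 days post fertilization by the sample labels (T2). The sources give differing ages for the T2 fish: the study's methods count days after hatching and do not match the labels, and the extraction protocol in the labels names an earlier age. All fish received the same food before T1, and the early groups were the extremes of the size distribution of one population, so early growth was selected by size-grading and not imposed. The methods describe 1 tank for each T2 group, so tank and group cannot be told apart, and fish of 1 group share it. The study also reports a higher body weight at T2 in FF than in SF, and in FS than in SS. Within each food supply, early history and body weight at T2 therefore cannot be told apart either. By the study, standard length differed between FS and SS and not between FF and SF.

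In sea bass, as in many fish, growth before sex differentiation is associated with the sex that a fish later takes, larger fish becoming females more often. The gonad is still undifferentiated when size differences between siblings appear. In males it then becomes a testis in which germ cells multiply among Sertoli cells, which nourish them, and steroid-producing Leydig cells. Whether a male testis keeps a trace of its early growth rate after the food supply has changed is the question that the comparison of FF and FS with SF and SS addresses.

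Each gonad was hybridised to a 1-colour Agilent array with 24200 sea bass probes against 11705 target sequences, which are expressed sequence tags (single cDNA clones) or contigs assembled from them. A level is the log2 of the background-corrected, quantile-normalised signal, and a difference of 1 is a doubling. None of the probe or target names matched the RefSeq table of 30274 sea bass genes, so probes are given by their identifier, no gene function can be stated, and the labelled tissue was not checked against marker genes. For each comparison at most 2 probes in each direction are named.

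Array quality moved with early growth. The share of spots well above background had a median of 77.4% in early fast testes (67.2% to 85.3%) and 81.8% in early slow testes (71.8% to 87.8%), a difference in means within food supplies of -5.56 percentage points (two-sided exact permutation test within food supplies, p = 0.024). The level of the spike-in RNA, an added control, was lower by 2.25 on the log2 scale in early fast than in early slow testes (-2.25, exact permutation p = 0.014), with -0.57 ± 1.52 in FF and -0.62 ± 1.01 in FS, against -1.09 ± 0.63 in SF and 4.40 ± 0.92 in SS (SD, n = 5 each). The high values were those of the 5 SS arrays. Only slide 4 held testes of both early histories, and there FS5 stood beside SF1, SF2 and SF3, which differ in later food too. FF2 was the one testis scanned on the second day. The part of these differences in the results was not tested. Fits with slide as a block cannot separate it from early history, since only slide 4 held both histories. The 5 FS testes were also far from one another: spread within FS made up 47.8% of the residual sum of squares at T2, and FS1, FS2 and FS4 stood apart from FS3 and FS5.

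**Figure D1:**
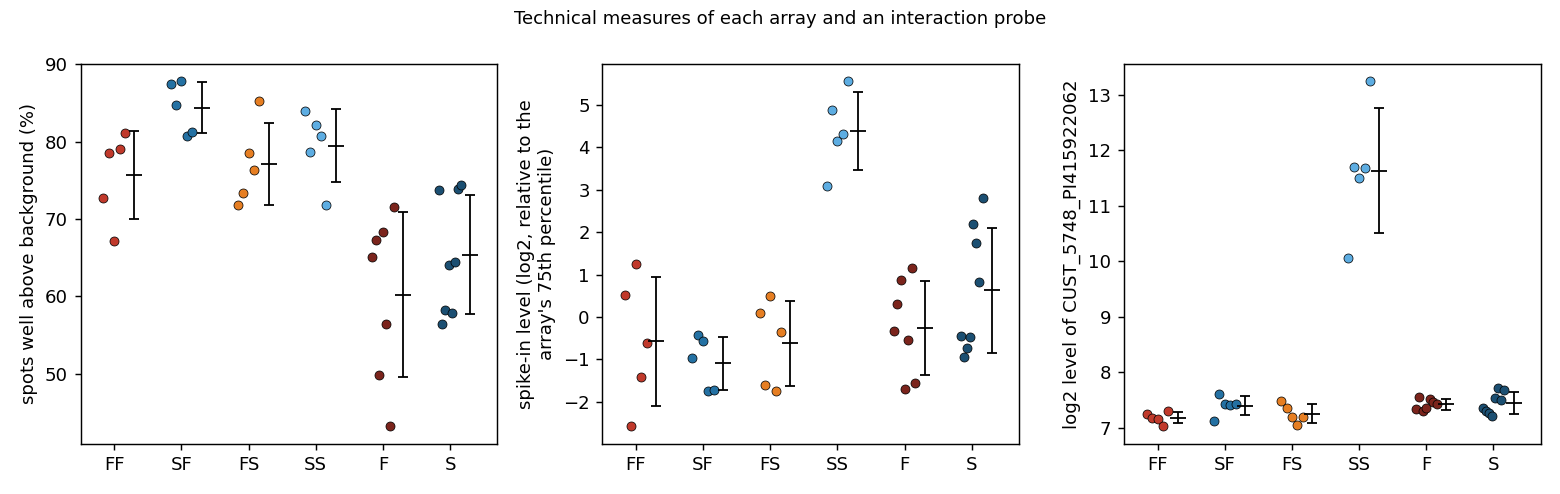
Share of spots well above background (%), spike-in level (log2, relative to the 75th percentile of the array) and log2 level of CUST_5748_PI415922062 on each array, by group, with mean and SD beside the points. The 5 SS arrays have spike-in levels of 3.08 to 5.56, above all other arrays, and the same arrays hold the high values of the probe.

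Early growth left no probe past the thresholds of the study in T2 testes. With early and later growth as additive factors, 0 of 24200 probes (0%) had a fold change of at least 1.5 and an adjusted p under 0.01 by limma, and the smallest adjusted p was 0.0104. At an adjusted p under 0.05 with no limit on fold change, 90 probes (0.372%) passed, of which 33 (0.136%) were higher and 57 (0.236%) lower in early fast testes. At an unadjusted p under 0.05 there were 5205 probes (21.5%), 2821 higher and 2384 lower. The 95% confidence interval lay within a 1.5-fold change either way for 66.3% of probes, so for those the interval held no larger change. For the others the interval reached beyond that size. The median SE over all probes was 0.13.

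The count depended on the model. When the same difference was taken from 4 group means in place of the additive factors, 29 probes passed the thresholds of the study (5 higher, 24 lower), of which 19 had an interaction of early and later growth at an unadjusted p under 0.05. With slide as a random block 0 probes passed at an adjusted p under 0.05 (smallest 0.132, limma), and 1882 passed at an unadjusted p under 0.05. Without FS1, FS2 and FS4 the count at an adjusted p under 0.05 was 4, of which 3 were among the 90, and the SD of the early difference over all probes was 0.209 in place of 0.322. With the scanner software's processed signal, scaled at the 75th percentile, 40.1% of the probes at an unadjusted p under 0.05 were higher in early fast testes, against 54.2% in the main fit. At an adjusted p under 0.05 that signal gave 44 probes, 3 higher and 41 lower. It also moved the median difference of all probes, to -0.09 for the early effect, 0.05 for FF minus SF, -0.36 for FS minus SS and 0.18 for F minus S at T1.

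Of the variance over 24096 complete probes at T2, early growth took 12.1%, later food 12.1% and their interaction 12%, each from 1 degree of freedom, and the residual 63.9%. A single degree of freedom would take 5.26% on average if no term acted. With 4 groups of equal size, 1 group that stands apart adds equally to all 3 terms. FS held the 3 testes that stood apart, and SS held the arrays with the high spike-in levels. The near-equal shares therefore do not separate early history from the position of a single group such as FS or SS.

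The probes with the lowest p that were higher in early fast testes both belonged to one clone, cDN29P0002I11.F.ab1. CUST_15945_PI416070213 had levels of 9.44, 9.07, 9.39, 9.77 and 9.51 in FF1 to FF5, against 8.83, 9.11, 8.95, 8.86 and 9.13 in SF1 to SF5. In the restricted fish the same probe stood at 9.55, 9.69, 9.52, 9.76 and 9.47 in FS1 to FS5, against 8.81 to 9.11 in the 5 SS testes. All FS testes were above all SS testes, and in the fed fish only FF2 overlapped the SF range. The early difference was 0.57 (SE 0.08, limma adjusted p = 0.0104).

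CUST_15944_PI416070213 had levels of 8.78 to 9.56 in FF and 9.23 to 9.58 in FS, against 8.58 to 8.89 in SF and 8.43 to 8.81 in SS. Its early difference was 0.67 (SE 0.10, limma adjusted p = 0.0104), again with FF2 as the one early fast testis within the early slow range. The third probe of the clone, CUST_15943_PI416070213, averaged 9.20 ± 0.22 in FF and 9.39 ± 0.14 in FS, against 8.95 ± 0.22 in SF and 9.04 ± 0.16 in SS (SD, n = 5 each). Its early difference was 0.30, in the same direction and smaller. Within slide 4, FS5 had 9.47 for CUST_15945_PI416070213, against a mean of 8.96 in SF1 to SF3. For both named probes the limma adjusted p was 0.132 with slide as a random block. Without FS1, FS2 and FS4 it was 0.0651 for CUST_15945_PI416070213 and 0.0728 for CUST_15944_PI416070213, with early differences of 0.50 and 0.55. With the processed signal it was 0.0654 for CUST_15945_PI416070213 and 0.0407 for CUST_15944_PI416070213, with early differences of 0.714 and 0.837.

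The clone was also higher in F than in S gonads at T1, which is a measure that did not enter its choice. CUST_15945_PI416070213 ran from 9.26 to 10.02 in F gonads (median 9.36) and from 8.58 to 9.10 in S gonads (median 8.81), without overlap. Its T1 difference was 0.72 (SE 0.13), with a limma adjusted p of 0.0562, above the threshold over all probes. CUST_15944_PI416070213 ran from 8.75 to 9.54 in F gonads and from 8.24 to 8.80 in S gonads, which overlap, and differed by 0.55 (SE 0.14, limma adjusted p = 0.0953). For the third probe of the clone the T1 difference was 0.56. All 3 probes of this clone thus had the same sign at T1 and in testes of both food supplies.

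The probes with the lowest p among those lower in early fast testes were of a different kind. CUST_21502_PI416070213, of clone cDN35P0002M01.F.ab1, was a dim probe that was well above background on 0 of 5 FF and 1 of 5 FS arrays, against 4 of 5 SF and 5 of 5 SS arrays. Its levels were 7.19 to 7.36 in FF and 7.24 to 7.60 in FS, against 7.22 to 7.99 in SF and 7.86 to 8.28 in SS, and SF2 alone of the early slow testes lay in the early fast range. The early difference was -0.61 (SE 0.09, limma adjusted p = 0.0104), which is a difference from a level near background. The other probes of this clone differed by 0.04 and -0.03, so the difference was seen by 1 of 3 probes. At T1 the probe differed by -0.13 (limma adjusted p = 0.688).

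CUST_1589_PI416070213, of contig SeabassC-CL1144Contig1, was bright on every array. It had 12.39, 12.50, 12.45, 12.31 and 12.48 in FF1 to FF5, against 12.73, 12.69, 12.76, 12.74 and 12.78 in SF1 to SF5. In restricted fish it had 12.40, 12.22, 12.60, 12.27 and 12.52 in FS1 to FS5, against 13.06, 12.91, 12.82, 12.84 and 12.69 in SS1 to SS5. The 10 early fast testes were all below the 10 early slow testes, by 0.39 on the log2 scale (-0.39, SE 0.06, limma adjusted p = 0.0104). Over all probes, 13 of 24096 (0.054%) had early groups that did not overlap, 10 of them higher (0.0415%) and 3 lower (0.0125%) in early fast testes. The other probes of the contig differed by -0.20 and -0.10. With the processed signal the difference of CUST_1589_PI416070213 was 0.0051 (limma adjusted p = 0.987), so its difference was lost under this scaling. Without FS1, FS2 and FS4 the adjusted p was 0.0651 for both CUST_1589_PI416070213 (-0.31) and CUST_21502_PI416070213 (-0.60), and with slide as a random block it was 0.151 and 0.132. At T1 CUST_1589_PI416070213 differed by 0.02.

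**Figure D2:**
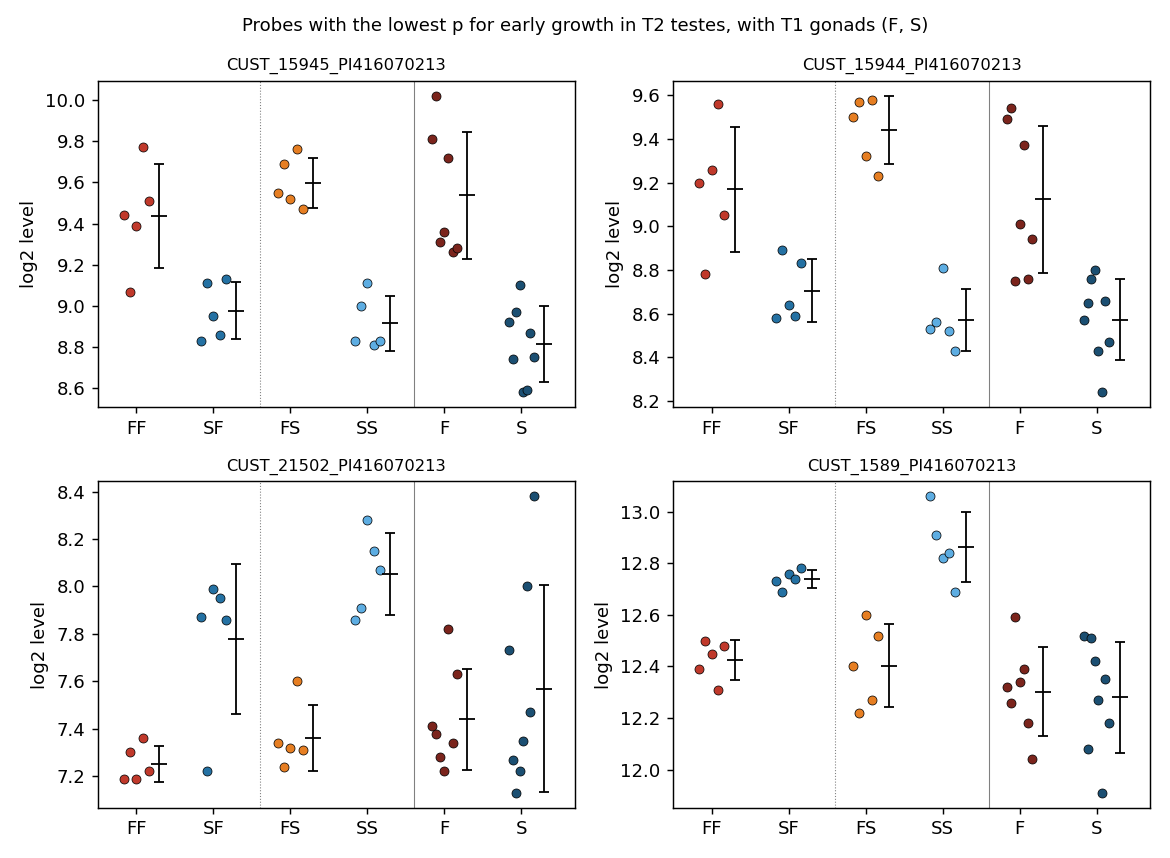
Log2 level of the 4 named probes in each gonad, with FF beside SF (fed), FS beside SS (restricted) and F beside S (T1), and mean and SD beside the points. The upper probes, both of clone cDN29P0002I11.F.ab1, are higher in the early fast group of each pair, and the lower probes are lower in FF and FS and show no such gap at T1.

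The 90 probes at an adjusted p under 0.05 belonged to 81 targets. The median early difference was 0.51 for the 33 higher and -0.55 for the 57 lower, and the differences ranged from -1.73 to 0.91. The probe at -1.73 had -0.50 in fed and -2.96 in restricted fish, and the probe at 0.91 had 0.73 and 1.09. A 1.5-fold change was reached by 34 of the 90. On all 20 T2 arrays 67 of them were well above background, and 1 was well above background on no early fast array. All 90 had the same sign in the fed and in the restricted fish, which the choice by the additive effect favours, against 51.6% of all probes. An interaction of early and later growth at an unadjusted p under 0.05 (limma) was seen for 24 of the 90, against 21.8% of all probes. Along the early direction the median difference was 0.376 in fed fish and 0.675 in restricted fish, and 0.441 over both without FS1, FS2 and FS4. The same choice favours these sizes. Of 83 other probes against the same targets, 76 (91.6%) had the sign of the listed probe. They were read on the same arrays, and the share over all targets is not given here.

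At T1, a measure not used to choose them, 61 of the 90 (67.8%) had the sign they had at T2, against 50.1% of all probes. Of the 33 higher probes 21 were also higher in F gonads, and of the 57 lower probes 40 were also lower. At an unadjusted T1 p under 0.05 there were 19 of the 90 (21.1%), against 20.4% of all probes, and 13 of the 19 had the same sign and 6 the opposite sign. Of the 4938 probes at that T1 p, 2571 (52.1%) had the sign of the early effect. The median T1 difference along the T2 direction was 0.0964. Probes of 1 target are not independent.

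FF minus SF and FS minus SS had different spreads over probes. In fed fish, FF minus SF, 0 probes (0%) passed either threshold (limma, smallest adjusted p 0.268), and 1404 (5.8%) had an unadjusted p under 0.05. In restricted fish, FS minus SS, 0 probes (0%) passed the thresholds of the study when FS and SS were fitted alone. With all 6 groups in 1 fit, 2254 passed them. The study reports more differentially expressed genes for FS against SS than for any other comparison, at these thresholds. In the fit of FS and SS alone, 14 (0.0579%) passed an adjusted p under 0.05, 1 higher (0.00413%) and 13 lower (0.0537%). Among the 13 were CUST_5748_PI415922062 and CUST_4179_PI415922062 (limma adjusted p = 0.0414 each), which were high only in SS, on the arrays with the high spike-in levels. The part of the spike-in RNA in the 14 was not tested. An unadjusted p under 0.05 was reached by 6843 (28.3%). The 14 and their split depended on the scaling: there were 299 (141 higher, 158 lower) in the deposited matrix, 296 (138 higher, 158 lower) with control spots kept, 420 (14 higher, 406 lower) with the processed signal, and 0 with slide or replicate number as a block. The SD of the difference over all probes was 0.210 in fed and 0.608 in restricted fish. The restricted count moved with single testes: at an adjusted p under 0.05 it was 4235 without FS5, 3705 without FS3, 410 without SS1, 5 without SS5, and 0 without any one of FS1, FS2, FS4, SS2, SS3 and SS4. Across probes the 2 differences, which share no fish, had a Pearson correlation of 0.00529, and 0.254 when FS was represented by FS3 and FS5 only.

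Single fish were then compared between food supplies. Each testis was placed along the early difference of the other food supply, as the projection over all complete probes, so that a testis with the same profile as that difference would differ by 1. FF testes scored 0.00092 ± 0.0831 and SF testes -0.000854 ± 0.0547 on FS minus SS (SD, n = 5 each), a difference of 0.00168 (two-sided exact permutation test, p = 0.97). FS testes scored 0.007 ± 0.405 and SS testes -0.0072 ± 0.623 on FF minus SF (SD, n = 5 each), a difference of 0.0141 (exact permutation p = 0.95). In both food supplies the scores overlapped. Without FS1, FS2 and FS4 the differences were 0.149 (exact permutation p = 0.48) and 0.43 (exact permutation p = 0.43).

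**Figure D3:**
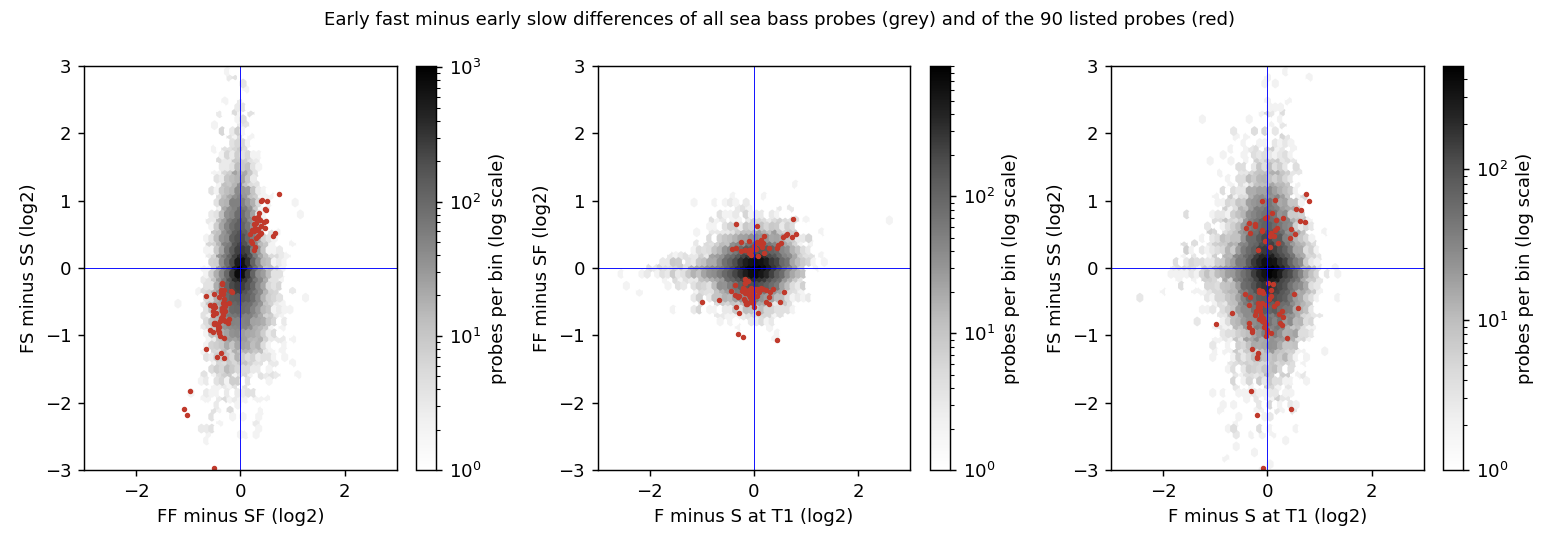
Early fast minus early slow differences (log2) of each probe as density (grey, log scale) with the 90 listed probes in red, for FS minus SS against FF minus SF, FF minus SF against F minus S at T1, and FS minus SS against F minus S at T1. The grey cloud is wider along FS minus SS (SD 0.608) than along FF minus SF (SD 0.210), and the red probes lie in the quadrants of equal sign in the left panel.

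The interaction, (FF minus SF) minus (FS minus SS), passed the thresholds of the study for 2 probes (0.00826%) and an adjusted p under 0.05 for 9 (0.0372%). The 9 were all positive in the main fit, but in the deposited matrix 56 passed (34 positive, 22 negative) and with control spots kept 54 (34 positive, 20 negative). For each of the 9, all SS levels were above all levels of the other T2 groups, which the choice by the interaction favours. The 5 SS arrays are those with the high spike-in levels. CUST_5748_PI415922062 had 7.02 to 7.48 in the early fast testes and 7.12 to 7.61 in SF, against 10.05, 11.70, 11.49, 11.67 and 13.24 in SS1 to SS5. CUST_4179_PI415922062 had 6.84 to 7.16 in the early fast testes and 6.97 to 7.24 in SF, against 9.34, 10.85, 10.70, 11.02 and 12.38 in SS1 to SS5. Only the SS testes were high, and they did not overlap the other groups. No FS array and all 5 SS arrays had both probes well above background, so FS was at least 20.8-fold lower than SS for CUST_5748_PI415922062 and at least 13.7-fold lower for CUST_4179_PI415922062, taking for each FS array the higher of the probe's level and the lowest level well above background. The limma adjusted p of the interaction was 0.00257 and 0.00333. The lowest and the highest SS level of both probes were those of SS1 and SS5, which also had the lowest (3.08) and highest (5.56) spike-in level of the group. The part of the spike-in RNA in the levels of the 9 probes was not tested. A filter for probes well above background on at least 50% of the arrays left out both probes before the fit, so it does not test them. Among the probes it kept, 0 passed the thresholds of the study and 5 passed an adjusted p under 0.05.

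Whether the differences between F and S gonads persisted in direction was examined next. The T1 gonads were of unknown future sex, while the T2 fish were males. The study reports more females in the groups derived from fast growers. F minus S at T1 may thus also hold a difference in future sex, which cannot be told apart from early growth here. The study also places T1 after the first molecular signs of sex differentiation. At T1, with F and S fitted alone, 0 probes (0%) passed the thresholds of the study. The study itself reports differentially expressed genes for F against S at these thresholds. With all 6 groups in 1 fit the count was higher and is given further below. In the fit of F and S alone, 10 (0.0413%) passed an adjusted p under 0.05, 9 higher (0.0372%) and 1 lower (0.00413%) in F. An unadjusted p under 0.05 was reached by 4938 (20.4%). The S gonads were partly scanned on another day, S5 to S8 on the first and S1 to S4 with all F gonads on the second. With S gonads of the second day only, 0 probes passed an adjusted p under 0.05 (limma) and 1911 an unadjusted p under 0.05.

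Over all probes, 12130 of 24200 (50.1%) had the same sign at T1 and in the early effect at T2, and the Pearson correlation across probes was 0.0254. The T1 difference and FF minus SF had the same sign for 53.6% of probes, and the T1 difference and FS minus SS for 48.0%. Probes are not independent replicates, and these shares have no error of their own.

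The share with the same sign was larger in fed fish among probes with a lower T1 p. In FF minus SF it was 60.8% of 4938 probes at a T1 p under 0.05, 68.5% of 1652 at under 0.01, and 79.7% of 256 at under 0.001. In FS minus SS the shares over the same probes were 47.2%, 47.8% and 53.5%. Of the 256 probes, 37 had an unadjusted p under 0.05 in FF minus SF with the T1 sign and 0 with the opposite sign, and in FS minus SS 39 with the T1 sign and 36 with the opposite sign. Over all 24200 probes the counts were 942 and 462 in FF minus SF, and 3402 and 3441 in FS minus SS. The median FF minus SF difference along the T1 direction was 0.143 for these 256 probes, whose median T1 difference was 0.657.

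**Figure D4:**
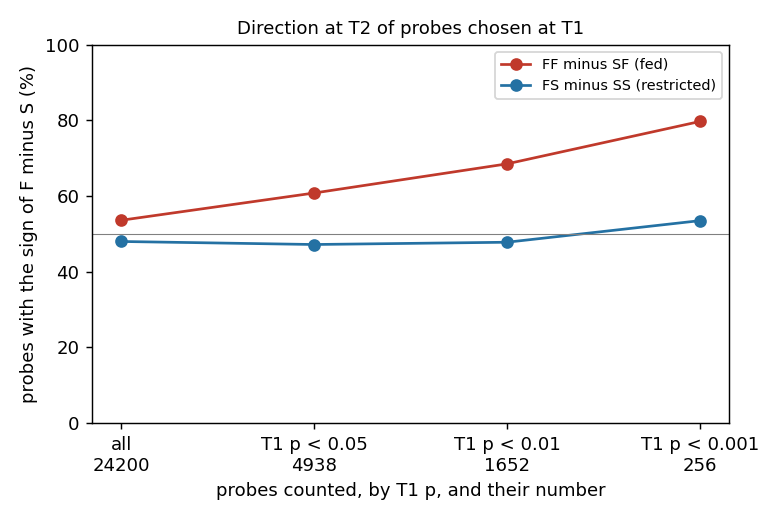
Percent of probes whose T2 difference has the sign of F minus S at T1, for all probes and for probes under 3 limits of T1 p, with the number of probes under each limit. In FF minus SF the percent runs from 53.6% to 79.7%, and in FS minus SS from 47.2% to 53.5%.

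In the main fit persistence did not pass a test over fish, and in fed fish this depended on the scaling. Each testis was scored along the T1 difference over 24035 probes, so that a full persistence of F minus S would give a difference of 1 between early fast and early slow testes. The difference was 0.0245 over both food supplies (two-sided exact permutation test within food supplies, p = 0.43), 0.0545 in fed fish (exact permutation p = 0.31) and -0.00557 in restricted fish (exact permutation p = 0.87). With the processed signal the difference in fed fish was 0.158 (exact permutation p = 0.024, not adjusted over the family), and in restricted fish -0.0957 (exact permutation p = 0.12). The shift of the median of all probes under that signal, given above, was in the same direction for F minus S and FF minus SF, and its part in the score was not tested. With S gonads of the second scan day only, the difference in fed fish was 0.206 (exact permutation p = 0.12). FF testes scored 0.0272 ± 0.0918 and SF testes -0.0272 ± 0.0733, and FS testes scored -0.00276 ± 0.0482 and SS testes 0.00277 ± 0.0472 (SD, n = 5 each). When the T1 gonads were scored along the T2 early effect instead, F and S gonads differed by 0.0302 (exact permutation p = 0.78), and by 0.107 (p = 0.11) without FS1, FS2 and FS4. The 8 scores tested as a family, 2 of them added after the data were seen, had adjusted p-values of 0.39 to 0.97.

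On the 1643 complete probes with a T1 p under 0.01, the 5 FF testes scored between -0.0277 and 0.238 and the 5 SF testes between -0.194 and 0.0877. The restricted testes scored between -0.0777 and 0.0847 in FS and between -0.11 and 0.147 in SS. The fed groups overlapped on this list as well. On the 256 probes with a T1 p under 0.001 they overlapped too, with -0.0668 to 0.327 in FF and -0.338 to 0.129 in SF. The shares of equal signs are taken from group means and do not show a separation of single fish. These lists were chosen after their shares of equal signs had been seen, and their scores are given as a description.

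**Figure D5:**
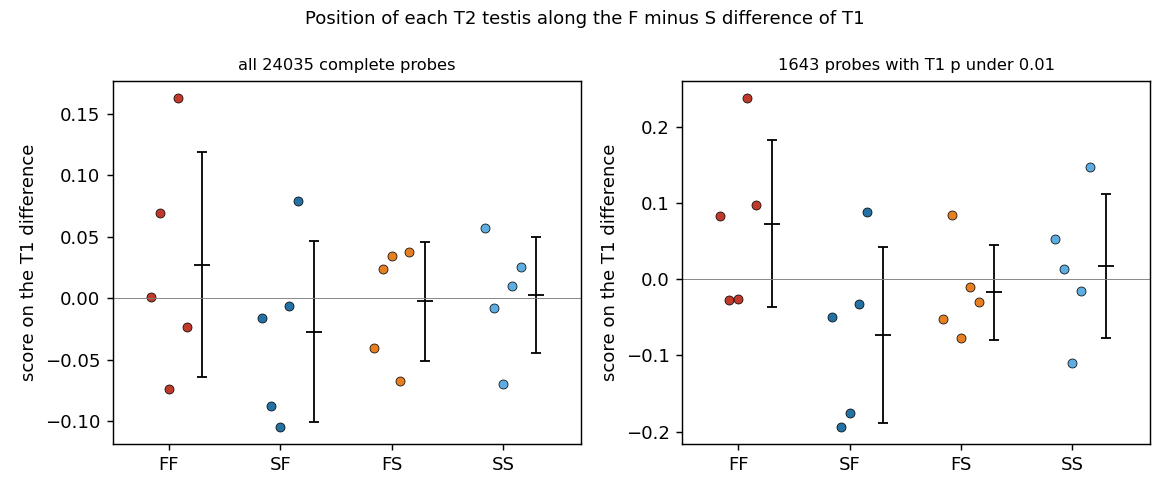
Score of each T2 testis along F minus S at T1 (no unit, 0 is the mean of its food supply), over all complete probes and over those with a T1 p under 0.01, by group, with mean and SD beside the points. FF lies on average above SF (0.0272 and -0.0272 over all probes) with overlapping fish, and FS and SS have means near 0.

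The probes with the lowest adjusted p at T1 differed in what they did at T2. CUST_6542_PI416070213, of contig SeabassC-CL4295Contig1, ran from 10.07 to 10.92 in F gonads (median 10.51) and from 9.13 to 9.89 in S gonads (median 9.38), a difference of 1.07 (SE 0.15, limma adjusted p = 0.0289). In testes its level was 8.23 to 9.46 after early fast growth and 8.42 to 9.89 after early slow growth, and the early difference was -0.11 (SE 0.18, limma adjusted p = 0.737). Its T1 gap was therefore not seen in testes beyond the spread of fish.

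CUST_15603_PI416070213, of clone cDN28P0007J10.F.ab1, ran from 12.43 to 13.07 in F gonads (median 12.88) and from 11.78 to 12.21 in S gonads (median 11.94), without overlap (0.81, SE 0.12, limma adjusted p = 0.0289). In fed fish it had 13.60, 13.14, 13.24, 13.82 and 14.08 in FF1 to FF5, against 12.94, 12.75, 12.25, 13.14 and 13.19 in SF1 to SF5. In restricted fish it had 11.52, 11.87, 12.97, 11.76 and 12.84 in FS1 to FS5, against 12.42, 12.43, 12.27, 12.71 and 13.09 in SS1 to SS5. The difference was 0.72 in fed fish (SE 0.22, limma adjusted p = 0.838) and -0.39 in restricted fish (SE 0.30, limma adjusted p = 0.41), and the interaction, 1.11, had an adjusted p of 0.151. In restricted fish the low values were those of FS1, FS2 and FS4. Both other probes of the clone had T1 differences of 0.82 and 0.85.

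Of the probes lower in F gonads, CUST_20583_PI416070213, of clone cDN34P0001H16.F.ab1, ran from 6.92 to 7.57 in F, where 2 of 7 arrays were well above background, and from 8.04 to 9.17 in S. The T1 difference was -0.99 (SE 0.16, limma adjusted p = 0.0489). In testes it averaged 8.65 ± 0.41 after early fast and 9.02 ± 0.25 after early slow growth (SD, n = 10 each), a difference of -0.37 with the T1 sign (SE 0.15, limma adjusted p = 0.183). Without FS1, FS2 and FS4, which had the low FS values, the difference was -0.13 (limma adjusted p = 0.695). The other probes of the clone differed by -0.09 and -0.45 in testes. CUST_6652_PI415922062, of contig SeabassC-CL4093Contig1, differed by -0.77 at T1 (SE 0.13, limma adjusted p = 0.052) and by -0.30 in testes (SE 0.14, limma adjusted p = 0.223). Without FS1, FS2 and FS4 its early difference was -0.30 (limma adjusted p = 0.536). Of the 10 probes at an adjusted T1 p under 0.05, 9 had the T1 sign in fed fish, 5 in restricted fish and 8 in the early effect over both. The 8 include CUST_15601_PI416070213, CUST_15602_PI416070213 and CUST_15603_PI416070213, all of clone cDN28P0007J10.F.ab1. Their early differences were 0.00, 0.04 and 0.17, and probes of the same clone are not independent.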

How the data were processed

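The authors deposited the scanner output of 35 arrays (Agilent Feature Extraction 10.7.3.1 per the file headers), with the intensity of each spot and of its local background on a linear scale, and a matrix of processed log2 values deposited by the authors after background correction and quantile normalization. Median foreground and background intensities were corrected by normexp (offset 50), 1417 control spots per array were left out, log2 values of the 43803 sea bass spots were quantile normalized over all arrays, 2763 flagged spots were left out, and a probe took the median of its spots. The result lay within 0.1 of the deposited log2 matrix for 98.3% of values. Median foreground was used because the scanner columns hold no mean. The number of arrays limits the precision.

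Differences were fitted with limma 3.58.1 (lmFit and eBayes, R 4.3.3), with early and later growth as additive factors for the early effect, and Benjamini-Hochberg adjustment over all probes. Thresholds were a fold change of 1.5 with an adjusted p of 0.01, and an adjusted p of 0.05 alone. Scores were tested by exact permutation of fish within food supplies (63504 divisions, 252 within 1 food supply and 6435 at T1). Groups follow the sample titles. File names of T2 arrays carry other fish numbers. Named probes for the early effect and at T1 are the 2 in each direction with the lowest p. These had to be well above background on at least 50% of the arrays of the higher group. For the interaction the called probes are named, without that filter. Members and lists were chosen with earlier results of these data known. The study's methods describe individual gonads, with 1 array for each fish. Fish of 1 group came from 1 tank, so p-values measure the spread between these fish. The alternatives were the normexp offset and background, the processed signal, separate normalization of T1 and T2, control spots kept, the deposited matrix, a filter on dim probes, spot means, 1 value per target, array weights, all groups in 1 fit, slide or replicate number as a block, 4 group means or no later growth term, the second scan day only, Pearson's r in place of the slope, and arrays left out. The fit of the early effect and the slope of the scores were tested on simulated data with independent noise for each probe. Those data held no slide effect, no spike-in difference and no FS testes set apart, and normalization was not part of that test. Figures used Python 3.11.15 with matplotlib 3.10.9.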

Additional observations from a re-analysis of the deposited data

Results flagged for a closer look

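The interaction of early and later growth differed between food supplies by the fit itself for CUST_5748_PI415922062 (4.16 on the log2 scale) and CUST_4179_PI415922062 (3.67), both high in SS testes only, where the spike-in level was also high. These are fitted values and no folds, since neither probe was well above background on any FF or FS array, and the bounds above apply. Of 98 group checks of levels, scores and array measures, 5 (5.1%) had a sample far from the rest of its group, where chance gives about 1 in 20. For CUST_21502_PI416070213, FS4 stood high within FS (7.60) and SF2 low within SF (7.22). F2 stood low within F for CUST_20583_PI416070213 (6.92) and for CUST_6652_PI415922062 (8.00). FF2 had the highest median background within FF (21), and it was the one testis on a slide of the second scan day.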

How the results depend on the processing

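The fold and p thresholds of the study gave 0 probes for the early effect, and 2 with control spots kept, 2 with the deposited matrix, 11 with array weights, 29 with 4 group means, 105 with all 6 groups in 1 fit, and 0 to 15 when each array was left out in turn (15 without SF2). At an adjusted p under 0.05, the 90 probes became 44 (3 higher, 41 lower) with the processed signal, 56 of 11705 with 1 value per target, 4 without FS1, FS2 and FS4, 611 with 4 group means, 1336 with all 6 groups in 1 fit, 0 with slide as a random block, and 32 (without SS4) to 270 (without FS5) with each array left out. Fed fish gave 0 under each alternative run. Restricted fish, with 0 at the thresholds of the study and 14 at an adjusted p under 0.05, gave 2 with a normexp offset of 0, 68 with the processed signal, 7832 with array weights, 2254 with all 6 groups in 1 fit, and 0 to 14 with each array left out. At an adjusted p under 0.05 these 14 became 169 with an offset of 0, 117 with the foreground alone, 420 with the processed signal, 122 with T1 and T2 normalized separately, 296 with control spots kept, 299 with the deposited matrix, 9 with 1 value per target, 1 without FS1, FS2 and FS4, 13044 with array weights, 5292 with all 6 groups, 0 with slide as a random block, and 0 to 4235 with each array left out. The interaction, with 2, gave 9 at an adjusted p under 0.05, 6 with an offset of 0, 23 with the processed signal, 6254 with array weights, 29 with all 6 groups, 0 with the filter on dim probes, 0 without FS1, FS2 and FS4, 0 with slide as a random block, and 1 to 65 with each array left out. The filter on dim probes left out both of the 2 before the fit. Its 9 at an adjusted p under 0.05 became 15 with an offset of 0, 22 with the foreground alone, 110 with the processed signal, 20 with separate normalization, 54 with control spots kept, 56 with the deposited matrix, 4 with 1 value per target, 5 with the filter on dim probes, 0 without FS1, FS2 and FS4, 9805 with array weights, 171 with all 6 groups, 2 with slide as a random block, and 2 to 3359 with each array left out. T1, with 0, gave 10 at an adjusted p under 0.05, 4 with array weights and 94 with all 6 groups, and 0 with each array left out. The T1 count of 10 at an adjusted p under 0.05 became 0 with an offset of 0, 5 with the foreground alone, 0 with the processed signal, 6 with 1 value per target, 319 with array weights, 1397 with all 6 groups, 0 with slide as a random block, 0 with S gonads of the second scan day, and 0 to 362 with each array left out.

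The replicate numbers did not pair the fish throughout: deviations from the group means of same-numbered testes correlated between -0.396 and 0.78. Testes numbered 1 were all positively correlated (0.13 to 0.78, mean 0.434). The mean was -0.107 for number 2, 0.172 for number 3, 0.0907 for number 4 and -0.0513 for number 5. With the replicate number as a block the early effect had 0 probes at the thresholds of the study and 59 at an adjusted p under 0.05, the interaction 0 and 5, restricted fish 0 at an adjusted p under 0.05, and T1 0 at an adjusted p under 0.05.

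The score on the T1 difference (0.0245) ranged from -0.0336 (without F3) to 0.059 with each array left out, and Pearson's r in its place was 0.0274. In fed fish (0.0545) it was 0.158 with the processed signal (exact permutation p = 0.024) and 0.206 with the second scan day (exact permutation p = 0.12), and 0.0205 to 0.0847 with each array left out. Over 11 settings, those leaving out 1 array aside, the exact permutation p in fed fish ran from 0.024 to 0.37. In restricted fish (-0.00557) it ranged from -0.114 to 0.0666, and was 0.00707 with the foreground alone and 0.0329 without FS1, FS2 and FS4. The T1 gonads scored on the T2 effect ranged from -0.0463 to 0.0685, and was 0.107 without FS1, FS2 and FS4. Between food supplies, fed fish ranged from -0.0234 to 0.036 and restricted fish from -0.215 to 0.366, with -0.0287 and -0.159 under the processed signal and -0.00327 and -0.0274 under the filter on dim probes, and 0.149 and 0.43 without FS1, FS2 and FS4. The age score was -0.02 without FS1, FS2 and FS4. The share with the same sign at T1 and T2 was 48.4% to 51.3% with each array left out. After the shares by T1 p had been seen, 3 versions of the score were tried in each food supply: T1 probes at p under 0.01 gave 0.146 in fed and -0.0346 in restricted fish, those under 0.001 gave 0.251 and 0.0117, and weighting by T1 precision gave 0.0984 and -0.0174. Of these 6 values 1, in fed fish, had an unadjusted exact permutation p under 0.05, and 0 had one after adjustment. CUST_1589_PI416070213 had 0.00508 with the processed signal. The causes of these changes were not tested. Fewer spots were well above background at T1, with group medians of 65.1% in F and 64.2% in S gonads. In testes these medians were 77.4% after early fast and 81.8% after early slow growth. With the filter on dim probes, 8 probes passed an adjusted p under 0.05 at T1 (limma), against 10 in the main fit. The part of dim signal in the T1 results was not tested.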

Other observations

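Further values were added after the data were seen. The length of the early effect over all probes (the root of the summed squared differences) was 49.9, with an exact permutation p of 0.049 within food supplies, and 0.39 after adjustment over the 8 scores. Along the difference between T2 and T1 means, early fast and early slow testes differed by 0.0293 (exact permutation p = 0.5), so a displacement along age was not detectable.

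By signal level, the share of probes with an unadjusted p under 0.05 for the early effect was 14.6% in the dimmest and 25.1% in the brightest of 4 classes of 6050 probes each. Among the brightest 668 were higher and 852 lower in early fast testes, and among the dimmest 530 were higher and 351 lower. Of the 90 listed probes, 7 lay in the dimmest class and 23 in the brightest.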
